A study of Mus musculus with 12 samples.

Results

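Transcripts of 6 mouse genes were followed across 4 genotypes of oesophageal epithelium: the STEAP metalloreductase genes Steap1, Steap2, Steap3 and Steap4, and the vanin genes Vnn1 and Vnn3. They are 6 of the 23337 gene symbols counted. Steap4 and Vnn3 were chosen by their counts in these libraries, which were steadily higher with active IKKβ, and the other 4 genes were added as their relatives. The IKKβ values of Steap4 and Vnn3 are therefore given as a description, with no test, and those of the relatives are treated in the same way. Tests are given only for the loss of Stat3, which was not the basis of the choice, although those comparisons use the same libraries. A choice for a steady rise favours genes whose libraries with active IKKβ agree. For Steap4 and Vnn3, tests of Stat3 loss within active IKKβ are therefore not free of the choice.

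RNA came from epithelium of 6-week-old C57BL/6 mice that had been separated mechanically from the stroma, and each group held 3 libraries. Ikkβca+Stat3KO mice carried 3 alleles: ED/L2-Cre+, an Epstein-Barr virus promoter that drives Cre in oesophageal epithelium, ROSA26-StopFL-Ikk2ca+/L, a constitutively active IKKβ behind a floxed stop cassette, and Stat3L/L, floxed Stat3. Ikkβca mice carried ED/L2-Cre+ with ROSA26-StopFL-Ikk2ca+/L, so active IKKβ was switched on and Stat3 was not floxed. Stat3KO mice carried ED/L2-Cre+ with Stat3L/L. Control mice carried ROSA26-StopFL-Ikk2ca+/L with Stat3L/L and no Cre, so they held both conditional alleles before recombination, and Cre itself cannot be told apart from the genotype change in any comparison with Control. Whether replicate libraries came from separate animals is not stated, so p-values measure only the spread between these libraries. Sex-linked transcripts marked replicate 1 of every group as female and replicates 2 and 3 as male. Replicate 1 thus came from a different animal than replicates 2 and 3, and whether those 2 differ is not known.

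STEAP proteins are membrane oxidoreductases that pass electrons from NADPH through flavin and haem to ferric or cupric ions, which cells can then take up in reduced form. Steap3 is the endosomal ferrireductase of the transferrin cycle, Steap2 and Steap4 also reduce iron and copper, and Steap1 lacks the domain that binds NADPH. Steap4 is known as a gene induced by TNF and other inflammatory signals, first described in adipocytes. Vanins are pantetheinases, which split pantetheine into pantothenate, the vitamin precursor of coenzyme A, and cysteamine, a thiol. IKKβ is the kinase that releases NF-κB from its inhibitor, and Stat3 carries signals of IL-6 and related cytokines to the nucleus.

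The upstream sequences of Steap4 and Vnn3 are shown because these are the genes the results turn on and because both NF-κB and STAT proteins bind DNA. Each is the 250 bases before the gene's start in RefSeq (build GRCm38.p6, the same assembly as mm10), given 5′ to 3′ on the plus strand, which is the coding strand of both genes. Capitals mark matches, on either strand, to the 10-base κB consensus or to the STAT letters TTCNNNGAA. Steap4 is shown at chr5:7960222-7960471 and Vnn3 at chr10:23851212-23851461.
Steap4: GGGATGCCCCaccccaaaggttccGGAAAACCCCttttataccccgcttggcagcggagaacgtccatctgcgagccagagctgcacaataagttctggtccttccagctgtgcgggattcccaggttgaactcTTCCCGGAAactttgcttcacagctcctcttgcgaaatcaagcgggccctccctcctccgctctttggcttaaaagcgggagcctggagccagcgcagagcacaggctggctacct
Vnn3: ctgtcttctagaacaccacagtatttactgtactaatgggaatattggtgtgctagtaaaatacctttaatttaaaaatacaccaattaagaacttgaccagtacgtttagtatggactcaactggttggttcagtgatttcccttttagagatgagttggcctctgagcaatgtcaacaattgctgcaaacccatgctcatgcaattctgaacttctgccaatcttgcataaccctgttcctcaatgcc

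The Steap4 window held 2 matches to the κB consensus, at 250 to 241 and 226 to 217 bases before the start, and 1 STAT match at 116 to 108 bases before it. The Vnn3 window held neither motif. Of 32851 windows of this length, 7.25% held the κB consensus, 7.02% the STAT letters and 0.499% both. Among the relatives, the single Steap1 window had neither of these motifs. In Steap2, 1 of 3 windows had a κB match and another a STAT match, and 1 of 4 Steap3 windows had a κB match. Vnn1 was not shown. The motifs were chosen with these sequences in view: a looser κB form, GGG and CC with 5 free bases between, found in 45.8% of windows, and the AP-1 letters TGANTCA, found in 6.75%, were searched first. The looser form matched 3 times in Steap4 and 0 times in Vnn3, and the AP-1 letters matched neither. In the relatives the looser form matched 2 times in the Steap1 window, up to 5 times in a Steap2 window and up to 3 times in a Steap3 window. Its matches thus do not set Steap4 apart from them. A match describes the letters only, and no binding was measured.

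Libraries held 14.8 M to 30.2 M counts. Levels are given in CPM, a gene's counts scaled to a library of 1 M with TMM factors, and log2 fold changes come from 1 edgeR fit to all 12 libraries. All 12 squamous markers were counted in every library, and Krt4 with Krt13, keratins of the suprabasal layers, took 4.05 to 13.9% of counts. Gastric gland markers summed to 1709 CPM in Ikkβca replicate 1 and 113 CPM in Stat3KO replicate 3, and adipocyte markers to 191 CPM in Control replicate 2. Ikbkb, the gene for IKKβ, lay above its comparison group in all 3 libraries of Ikkβca against Control (log2 fold change 0.45 ± 0.14 SE, edgeR adjusted p = 0.206) and of Ikkβca+Stat3KO against Stat3KO (0.42 ± 0.14, edgeR adjusted p = 0.319). Counts of Stat3 did not pass the test between Stat3KO and Control (-0.22 ± 0.15, edgeR adjusted p = 0.788) or between Ikkβca+Stat3KO and Ikkβca (-0.26 ± 0.15, edgeR adjusted p = 0.598). All 3 Stat3KO libraries lay below Control, where 13.1% of genes failed to overlap in either direction, and the other 2 groups overlapped. Averaged over both comparisons Stat3 was at -0.24 ± 0.11 (95% interval -0.48 to -0.0009, edgeR adjusted p = 0.391). A count per gene does not show whether the floxed exons were lost. The transcript counts thus give no check of either allele that passed a test.

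All 6 genes passed the filter on low counts. For Vnn3 this was through the Ikkβca and Ikkβca+Stat3KO libraries alone, so it had to differ between genotypes to be tested at all. Vnn1 also needed those libraries to pass. It held 3 and 5 counts in Control replicates 1 and 3, and 9 and 3 in Stat3KO replicates 1 and 2. Its difference with active IKKβ is therefore not free of the filter either.

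Steap4 had the highest mean CPM of the 6 genes in epithelium with active IKKβ, and the highest per length as well. It had 35.2, 51.6 and 67.1 CPM in Ikkβca+Stat3KO and 62.5, 69.4 and 91.2 CPM in Ikkβca, against 6.08, 6.94 and 3.76 CPM in Stat3KO and 3.80, 7.58 and 4.88 CPM in Control. Every library with active IKKβ lay above every library without it: the lowest with it held 35.2 CPM and the highest without it 7.58 CPM. The group means were 51.3 ± 15.9 CPM in Ikkβca+Stat3KO, 74.4 ± 15.0 in Ikkβca, 5.60 ± 1.64 in Stat3KO and 5.42 ± 1.95 in Control (SD, n = 3 each). In order of level Ikkβca came before Ikkβca+Stat3KO, then Stat3KO and Control. Neighbours in that order overlapped at the top and at the bottom, and the gap lay in the middle. The difference was 13.7-fold for Ikkβca against Control (log2 fold change 3.78 ± 0.34 SE) and 9.13-fold for Ikkβca+Stat3KO against Stat3KO (3.19 ± 0.33).

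Vnn3 was at or near 0 without active IKKβ. It had 4.05, 10.7 and 8.27 CPM in Ikkβca+Stat3KO and 12.5, 9.14 and 10.8 CPM in Ikkβca, against 0.180, 0 and 0.164 CPM in Stat3KO and 0, 0.0523 and 0.0762 CPM in Control. The 6 libraries without active IKKβ held 0 to 4 counts each, and the 6 with it 81 to 264. A count of 0 allows up to 3 counts, which is 0.132 CPM in Stat3KO replicate 2 and 0.168 CPM in Control replicate 1. Over the group, Ikkβca held 704 counts against 3 in Control, a ratio of 228 after library scaling with an exact 95% counting interval of 77.7 to 1109. Ikkβca+Stat3KO held 424 against 7 in Stat3KO, a ratio of 68.1 (32.8 to 170). These intervals cover counting error only. The fitted log2 fold changes, 7.68 ± 0.75 and 6.03 ± 0.67 SE, depend on the prior count because the lower groups are nearly empty.

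**Figure D1:**
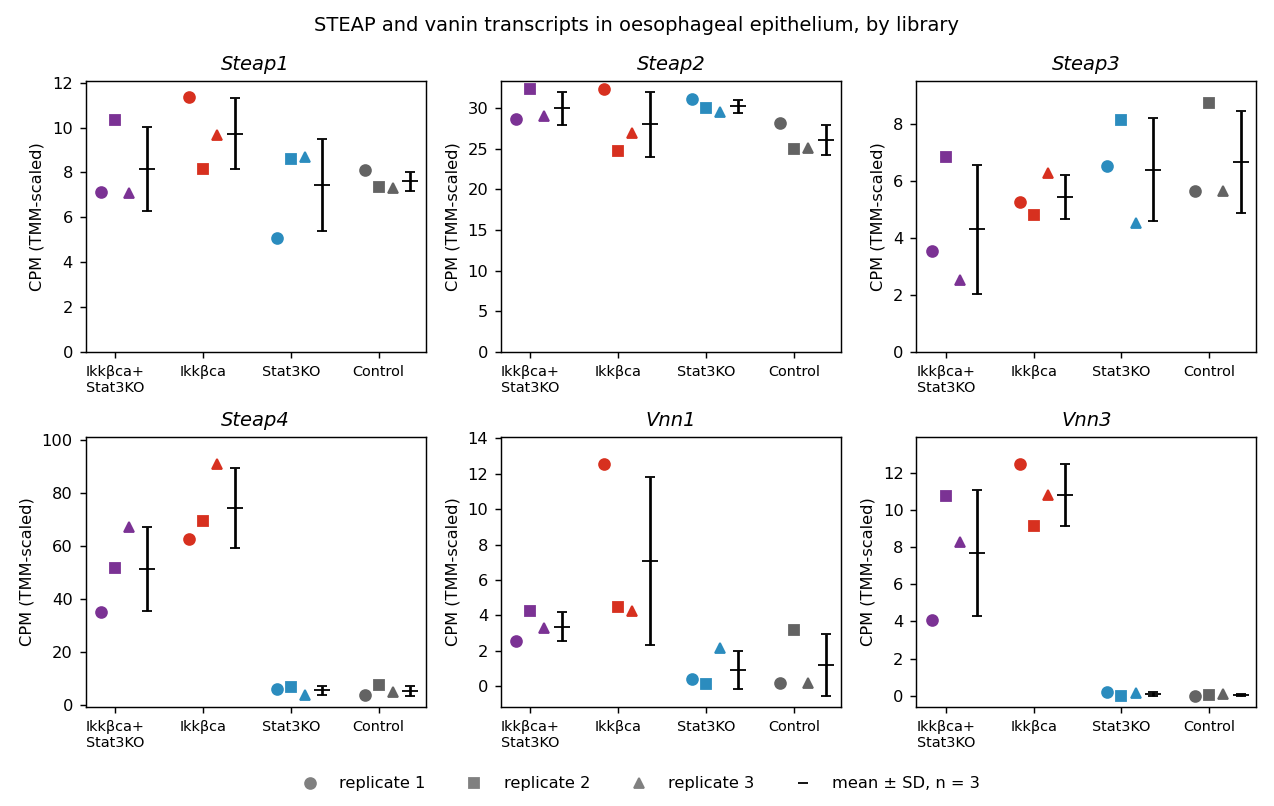
Each panel plots 1 gene in CPM after TMM scaling (vertical axis, different range per panel) for the 4 genotype groups; symbols are single libraries and bars are the mean ± SD of 3. Steap4 and Vnn3 separate the 6 libraries with active IKKβ from the 6 without it, while Steap1, Steap2 and Steap3 run from 5.09 to 11.3, 24.7 to 32.3 and 2.51 to 8.73 CPM with no such division, and Vnn1 is scattered.

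The plot of CPM by library shows these separations at a glance. All 6 libraries with active IKKβ lay above all 6 without it for 1.52% of the genes tested, and Steap4 and Vnn3 are the pair among these 6 genes that did so. Since these values chose the genes, nothing is read from that count. In Ikkβca+Stat3KO, replicate 1 was the lowest library for both genes, with 35.2 CPM of Steap4 and 4.05 of Vnn3, and it was also the lowest for Vnn1. In Ikkβca, by contrast, replicate 1 was the lowest for Steap4 at 62.5 CPM and the highest for Vnn3 at 12.5 CPM.

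Markers of other cells were set beside these levels. The 11 of 12 neutrophil markers found summed to 54.8 to 205 CPM in Ikkβca+Stat3KO and 267 to 831 in Ikkβca, against 38.5 to 84.8 in Stat3KO and 36.1 to 76.8 in Control. Without S100a8 and S100a9, which keratinocytes also express, the other 9 summed to 7.14 to 19.4 CPM in Ikkβca+Stat3KO, 23.3 to 39.1 in Ikkβca, 9.24 to 21.5 in Stat3KO and 9.78 to 24.8 in Control. Of these 9, Elane was at 0 in all 12 libraries and was the only marker at 0 throughout Ikkβca. Camp and Retnlg were also at 0 throughout Control, Retnlg throughout Stat3KO and Ngp throughout Ikkβca+Stat3KO. The 10 macrophage and monocyte markers summed to 45.9 to 96.3 CPM in Ikkβca+Stat3KO and 107 to 142 in Ikkβca, against 35.2 to 113 in Stat3KO and 54.5 to 122 in Control. The 10 adipocyte markers, a cell type known for Steap4, summed to 36.1 to 57.1 CPM in Ikkβca+Stat3KO and 67.3 to 77.0 in Ikkβca, against 29.3 to 41.2 in Stat3KO and 35.1 to 191 in Control, with Lep at 0 in every group but Control. Control replicate 2, the library with 191 CPM, also had the highest Steap4 of the Control group, at 7.58 CPM. The part of these cells in the result was not tested, and fewer cells of a type cannot be told apart from less RNA per cell in such samples.

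The other STEAP genes did not divide the libraries by IKKβ status. Steap1 had 7.11, 10.3 and 7.07 CPM in Ikkβca+Stat3KO and 11.3, 8.17 and 9.67 CPM in Ikkβca, against 5.09, 8.61 and 8.67 CPM in Stat3KO and 8.11, 7.37 and 7.32 CPM in Control. Its 3 Ikkβca libraries all lay above Control, by as little as 8.17 against 8.11 CPM, and the log2 fold change was 0.36 ± 0.24 SE. Between Ikkβca+Stat3KO and Stat3KO the libraries overlapped (0.13 ± 0.24). Non-overlap in the higher direction was met by 9.34% of genes in Ikkβca against Control and by 6.06% in Ikkβca+Stat3KO against Stat3KO. Of the 6 genes, 4 met it in the first of these comparisons and 3 in the second.

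Steap2 spanned the narrowest range of the 6 for its level. Its libraries held 28.6, 32.3 and 29.0 CPM in Ikkβca+Stat3KO and 32.3, 24.7 and 26.9 CPM in Ikkβca, against 31.1, 30.0 and 29.5 CPM in Stat3KO and 28.2, 24.9 and 25.1 CPM in Control. The log2 fold change was 0.10 ± 0.12 SE for Ikkβca against Control and -0.01 ± 0.12 for Ikkβca+Stat3KO against Stat3KO. Group means were 30.0 ± 2.01 CPM in Ikkβca+Stat3KO, 28.0 ± 3.95 in Ikkβca, 30.2 ± 0.835 in Stat3KO and 26.1 ± 1.83 in Control (SD, n = 3 each).

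Steap3, the endosomal iron reductase, overlapped between groups with and without active IKKβ. It had 3.55, 6.85 and 2.51 CPM in Ikkβca+Stat3KO and 5.25, 4.79 and 6.28 CPM in Ikkβca, against 6.53, 8.13 and 4.53 CPM in Stat3KO and 5.65, 8.73 and 5.64 CPM in Control. The means were lower with active IKKβ and the libraries overlapped, with log2 fold changes of -0.29 ± 0.36 SE for Ikkβca against Control and -0.57 ± 0.37 for Ikkβca+Stat3KO against Stat3KO. Ikkβca+Stat3KO replicate 2 stood at 6.85 CPM, and without it the second value was -1.08.

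Levels of different genes can be compared only per length, so CPM was divided by the kilobases of annotated exon (GENCODE M21). On that scale Steap4 averaged 16.3 CPM per kb in Ikkβca+Stat3KO and 23.6 in Ikkβca, against 1.77 in Stat3KO and 1.72 in Control. Steap1 averaged 5.93 and 7.07 CPM per kb in the same groups with active IKKβ, against 5.42 in Stat3KO and 5.52 in Control. Steap2 lay between 2.15 and 2.49 CPM per kb and Steap3 between 0.754 and 1.17 in the 4 groups. Steap4 thus led the family in both groups with active IKKβ, and Steap1 led it in Stat3KO and Control. The length of Steap2 is the least certain, since its 12144 bases of exon are the union of 9 transcripts.

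Steap4 made up most of the summed STEAP level per kb wherever IKKβ was active. Its share was 57.8, 59.0 and 72.8% in Ikkβca+Stat3KO and 62.6, 71.4 and 73.7% in Ikkβca, against 20.7, 17.8 and 11.1% in Stat3KO and 11.6, 21.2 and 15.6% in Control. The lowest share with active IKKβ was far above the highest without it. The family's summed level was 19.3, 27.7 and 29.2 CPM per kb in Ikkβca+Stat3KO and 31.6, 30.8 and 39.2 in Ikkβca, against 9.33, 12.3 and 10.7 in Stat3KO and 10.4, 11.3 and 9.91 in Control. These shares contain the Steap4 values that chose the gene and add no separate support.

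**Figure D2:**
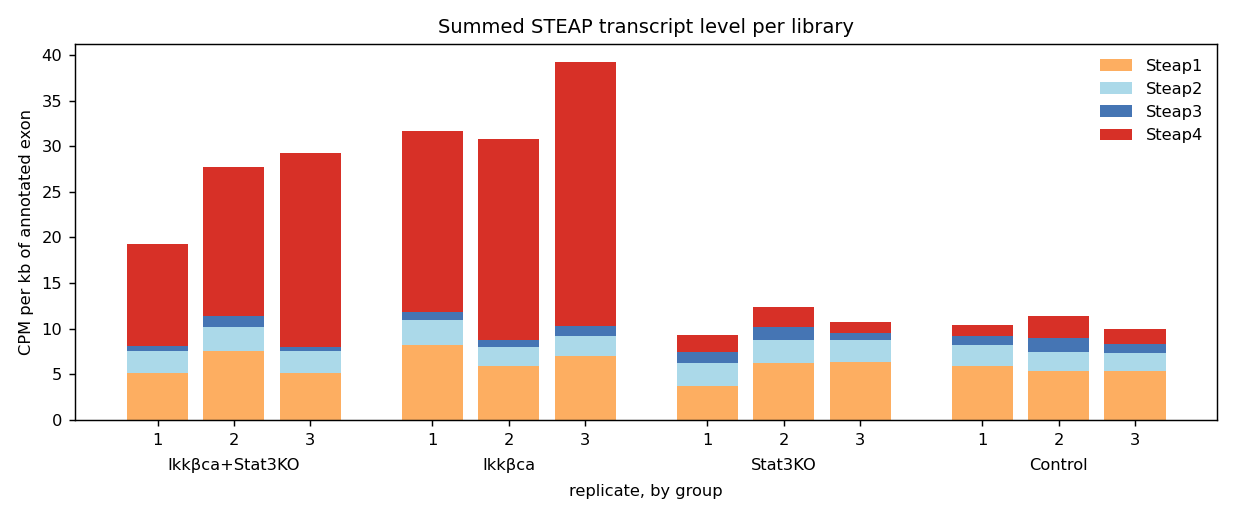
Bars give the summed CPM per kb of annotated exon (vertical axis) of the 4 STEAP genes in each of 12 libraries, by group, with colours for single genes. Steap4 takes 57.8 to 73.7% of the bar in the 6 libraries with active IKKβ and 11.1 to 21.2% in the other 6.

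The stacked bars place this on the scale of the whole family. Among the vanins the order also changed with genotype. Vnn3 averaged 4.25 CPM per kb in Ikkβca+Stat3KO and 5.97 in Ikkβca, above Vnn1 at 1.39 and 2.93. In Stat3KO Vnn3 stood at 0.0633 CPM per kb and in Control at 0.0236, below Vnn1 at 0.368 and 0.489.

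Vnn1, known in mouse liver as a target of PPARα, was low and scattered. It had 2.55, 4.24 and 3.30 CPM in Ikkβca+Stat3KO and 12.6, 4.45 and 4.21 CPM in Ikkβca, against 0.406, 0.132 and 2.13 CPM in Stat3KO and 0.168, 3.19 and 0.191 CPM in Control. Single libraries stood apart in 3 groups: Ikkβca replicate 1, Stat3KO replicate 3 and Control replicate 2. The Ikkβca libraries all lay above Control and the Ikkβca+Stat3KO libraries all above Stat3KO, but Control replicate 2 lay above Ikkβca+Stat3KO replicate 1. Group means were 3.36 ± 0.845 CPM in Ikkβca+Stat3KO, 7.08 ± 4.76 in Ikkβca, 0.888 ± 1.08 in Stat3KO and 1.18 ± 1.74 in Control (SD, n = 3 each).

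The size of the Vnn1 difference depended on those libraries. For Ikkβca against Control the log2 fold change was 2.59 ± 1.09 SE, 1.88 without Ikkβca replicate 1 and 5.25 without Control replicate 2. For Ikkβca+Stat3KO against Stat3KO it was 1.95 ± 1.10, 3.62 without Stat3KO replicate 3 and 1.42 without Stat3KO replicate 2. The gastric gland markers, 10 genes, summed to 1709 CPM in Ikkβca replicate 1, 113 in Stat3KO replicate 3 and 18.9 in Stat3KO replicate 1, against 0.923 to 2.56 CPM in the other 9 libraries. Control replicate 2 held only 2.56 CPM of gastric markers but 191 CPM of adipocyte markers, against 29.3 to 78.6 in the other 11 libraries. Skeletal muscle markers were highest within their group in each of the libraries that stood apart. They summed to 883 CPM in Ikkβca replicate 1, 1823 in Stat3KO replicate 3 and 336 in Control replicate 2. Stat3KO replicate 2 had 866 CPM of them and the lowest Vnn1, 0.132 CPM. Fibroblast markers were highest in their group in Control replicate 2 (2557 CPM) and lowest in Ikkβca replicate 1 (635) and Stat3KO replicate 3 (844). The part of any of these tissues in the Vnn1 values was not tested.

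**Figure D3:**
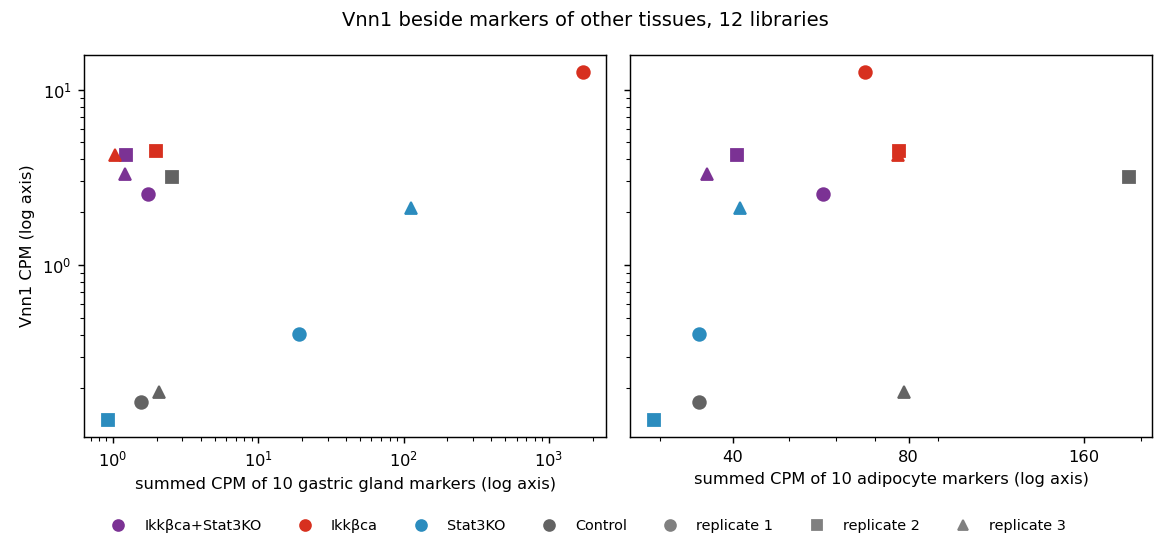
Vnn1 in CPM (vertical, log axis) is plotted against the summed CPM of 10 gastric gland markers (left, log axis) and 10 adipocyte markers (right, log axis) for 12 libraries, with colours for groups and symbols for replicates. The highest Vnn1 value, 12.6 CPM, is in the library with 1709 CPM of gastric markers, and the highest Control value, 3.19 CPM, is in the library with 191 CPM of adipocyte markers.

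The scatter of Vnn1 against these markers shows that Ikkβca replicates 2 and 3 and the Ikkβca+Stat3KO libraries had 2.55 to 4.45 CPM of Vnn1 with gastric markers at 1.03 to 1.98 CPM. Their Vnn1 levels lay above 5 of the 6 libraries without active IKKβ, which is given as a description only. The same libraries held 45.8 to 625 CPM of skeletal muscle markers. The part of any tissue in their Vnn1 levels was not tested.

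Was the level of any of these genes changed by loss of Stat3? Against Control, Stat3KO called 0 of the 14134 genes tested in edgeR (0% called, smallest adjusted p = 0.179, 1060 genes at an unadjusted p below 0.05, and 104 genes called by DESeq2). In this comparison the log2 fold change of Steap4 was 0.05 ± 0.32 SE (95% interval -0.65 to 0.75, edgeR adjusted p = 0.988). Vnn3 was at 1.16 ± 1.01 (-1.08 to 3.39, edgeR adjusted p = 0.854), which rests on 7 counts in Stat3KO and 3 in Control, a ratio of 2.33 with a counting interval of 0.532 to 14.0. Vnn1 was at -0.43 ± 1.11 (-2.87 to 2.02, edgeR adjusted p = 0.967), 2.23 without Control replicate 2 and -2.09 without Stat3KO replicate 3.

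Steap2 was the gene of the 6 whose Stat3KO libraries, 29.5 to 31.1 CPM, all lay above Control, 24.9 to 28.2 CPM. Its log2 fold change was 0.21 ± 0.12 SE (95% interval -0.05 to 0.47, edgeR adjusted p = 0.722), and the exact two-sided permutation p was 0.1, the smallest that 3 libraries against 3 allow. Groups failed to overlap in 13.1% of genes here, so 1 of 6 is near the background. Steap1 and Steap3 were at -0.03 ± 0.24 and -0.06 ± 0.36, with edgeR adjusted p values of 0.992 and 0.988.

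Within epithelium with active IKKβ, the Ikkβca+Stat3KO group was compared with Ikkβca, which again called 0 of 14134 genes in edgeR (0% called, smallest adjusted p = 0.175, 1396 genes at an unadjusted p below 0.05, and 131 called by DESeq2). Steap4 had a lower mean in Ikkβca+Stat3KO with overlapping libraries. Its log2 fold change was -0.54 ± 0.30 SE (95% interval -1.19 to 0.12, edgeR adjusted p = 0.575), with an exact two-sided permutation p of 0.2. It was -0.31 without Ikkβca+Stat3KO replicate 1 and -0.77 without replicate 3 of that group. Vnn3 was at -0.49 ± 0.48 (-1.54 to 0.56, edgeR adjusted p = 0.764), with an exact permutation p of 0.2. Without Ikkβca+Stat3KO replicate 1 it was -0.17, and without replicate 2 of that group -0.81. The steady level of these same libraries helped to choose Steap4 and Vnn3, so their p-values here are not free of the choice. Vnn1 was at -1.07 ± 1.02 (-3.32 to 1.17, edgeR adjusted p = 0.758) and at -0.37 without Ikkβca replicate 1.

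The STEAP relatives did not separate in this comparison. Steap1 was at -0.25 ± 0.24 SE (edgeR adjusted p = 0.762), Steap2 at 0.10 ± 0.12 (edgeR adjusted p = 0.814) and Steap3 at -0.34 ± 0.37 (edgeR adjusted p = 0.789). None of the 6 genes had groups that failed to overlap, where 14.7% of all genes did.

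Both Stat3 comparisons were then averaged. In a balanced design with equal spread in all groups, such an estimate is uncorrelated with the IKKβ change averaged over Stat3 status. Equal spread cannot be assumed for Vnn3, with 3 counts in Control and 7 in Stat3KO against 704 in Ikkβca and 424 in Ikkβca+Stat3KO. The averaged test called 37 genes, 0.262% of those tested, and none of the 6 genes. The 37 are not stable: library totals, the replicate block and the omission of any of 5 single libraries (Ikkβca replicate 3, Stat3KO replicates 1 and 2, Ikkβca+Stat3KO replicates 1 and 3) each left 0. Steap4 averaged -0.24 ± 0.22 SE (95% interval -0.72 to 0.24, edgeR adjusted p = 0.705), and an exact permutation of libraries within each IKKβ background gave a two-sided p of 0.34, where 0.005 is the smallest possible. Vnn3 averaged 0.33 ± 0.53 (-0.83 to 1.5, edgeR adjusted p = 0.851). On log2 CPM with a prior count of 2 the same Vnn3 difference was -0.04 (exact permutation p = 0.91), so its sign rests on how counts near 0 are handled. Vnn1 averaged -0.75 ± 0.75 (-2.41 to 0.91, edgeR adjusted p = 0.740), and 0.58 without Control replicate 2.

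Steap2 came nearest to a difference, at 0.16 ± 0.08 SE (95% interval -0.03 to 0.34, edgeR adjusted p = 0.472, exact permutation p = 0.06), and did not pass. Steap1 averaged -0.14 ± 0.17 (edgeR adjusted p = 0.797) and Steap3 -0.20 ± 0.26 (edgeR adjusted p = 0.809). The intervals bound what these libraries can show: for Steap4 the averaged one reaches -0.72.

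**Figure D4:**
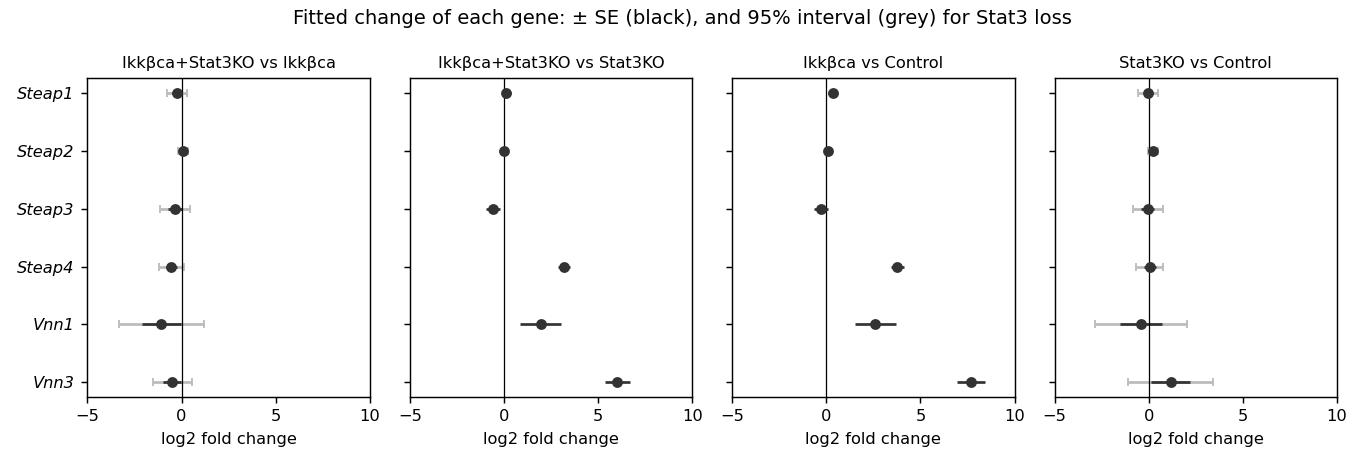
Points are fitted log2 fold changes of the 6 genes (horizontal axis) in 4 comparisons, black bars are ± 1 SE, and grey bars in the outer panels are 95% intervals, given where loss of Stat3 was tested. In the inner panels, which compare active IKKβ with its absence, Steap4 is at 3.19 and 3.78 and Vnn3 at 6.03 and 7.68; every interval for loss of Stat3 spans 0.

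As the plot of fitted changes shows, the fitted IKKβ difference of both chosen genes was lower without Stat3. The IKKβ change in Stat3KO minus that with Stat3 was -0.59 ± 0.44 SE in log2 for Steap4 and -1.65 ± 1.1 for Vnn3, against -0.23 ± 0.35 for Steap1, -0.11 ± 0.17 for Steap2 and -0.28 ± 0.51 for Steap3. For Vnn1 it was -0.65 ± 1.51, and 1.71 when the gastric-rich libraries, Ikkβca replicate 1 and Stat3KO replicate 3, were left out. These are differences between the comparisons that chose the genes and carry no test. The Vnn3 value also rests on 7 counts in Stat3KO and 3 in Control, so its size depends on how counts near 0 are handled. Over all genes the interaction called 0 of 14134 in edgeR (0% called, 658 genes at an unadjusted p below 0.05, and 5 called by DESeq2).

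Place in the genome separates the STEAP genes. Steap1 (chromosome 5, 5736317 to 5749326, minus strand, mm10) and Steap2 (chromosome 5, 5664829 to 5694578, minus strand) lie 41.7 kb apart with no protein-coding gene between them. Steap4 (chromosome 5, 7960457 to 7982213, plus strand) lies 2211.1 kb from Steap1 with 2 protein-coding genes between, and Steap3 (chromosome 1, 120190757 to 120272705, minus strand) is on another chromosome. Vnn3 (chromosome 10, 23851462 to 23869843, plus strand) and Vnn1 (chromosome 10, 23894688 to 23905343, plus strand) are neighbours 24.8 kb apart. Of the vanin neighbours, Vnn3 divided the libraries by IKKβ status and Vnn1 was scattered, while the neighbours Steap1 and Steap2 did not divide them.

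The relatives are not near-identical copies. Aligned coding sequences were 58.9 to 64.8% identical between STEAP genes and 68.5% between Vnn1 and Vnn3, and the longest identical run shared by any pair was 15 bases. None of the 6 genes overlaps another annotated gene. Steap1 has 339 codons, against 489 in Steap2, 526 in Steap3 and 470 in Steap4.

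Which genes had a pattern most like Steap4 and Vnn3? Genes with an average log2 CPM of at least 1 were ranked by Pearson r on log2 CPM over the 12 libraries. The STEAP and vanin genes and symbols of predicted models (Gm followed by digits, or ending in Rik) were left out, leaving 11338. Nearest to Steap4 were Lrrc32 (r = 0.99), which presents latent TGF-β, the neutrophil chemokine Cxcl5 (0.99), the homeobox gene Irx4 (0.98), the glutamate transporter Slc1a3 (0.98) and Lgi2 (0.98). Nearest to Vnn3 were Irx4 (0.99), Rassf6 (0.99), the IL-23 subunit Il23a (0.98), the ETS repressor Etv6 (0.98) and Cxcl5 (0.98). Irx4 and Cxcl5 were on both lists. The libraries fall into 2 separate sets by IKKβ status, so these r values rank genes by that split and are given with no p.

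Size differed widely among genes of like pattern. Lrrc32 averaged 51.5 ± 22.1 CPM in Ikkβca+Stat3KO and 61.7 ± 12.3 in Ikkβca, against 5.50 ± 0.718 in Stat3KO and 5.92 ± 2.55 in Control, which is close to the levels of Steap4. Irx4 was near absent without active IKKβ, as Vnn3 was, with 7.46 ± 4.17 CPM in Ikkβca+Stat3KO and 7.89 ± 1.04 in Ikkβca, against 0.0779 ± 0.0499 in Stat3KO and 0.0174 ± 0.0302 in Control. Etv6 divided the libraries in the same way with a far smaller step, at 89.6 ± 6.07 CPM in Ikkβca+Stat3KO and 89.5 ± 5.14 in Ikkβca, against 61.8 ± 2.33 in Stat3KO and 57.2 ± 2.73 in Control (SD, n = 3 each).

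**Figure D5:**
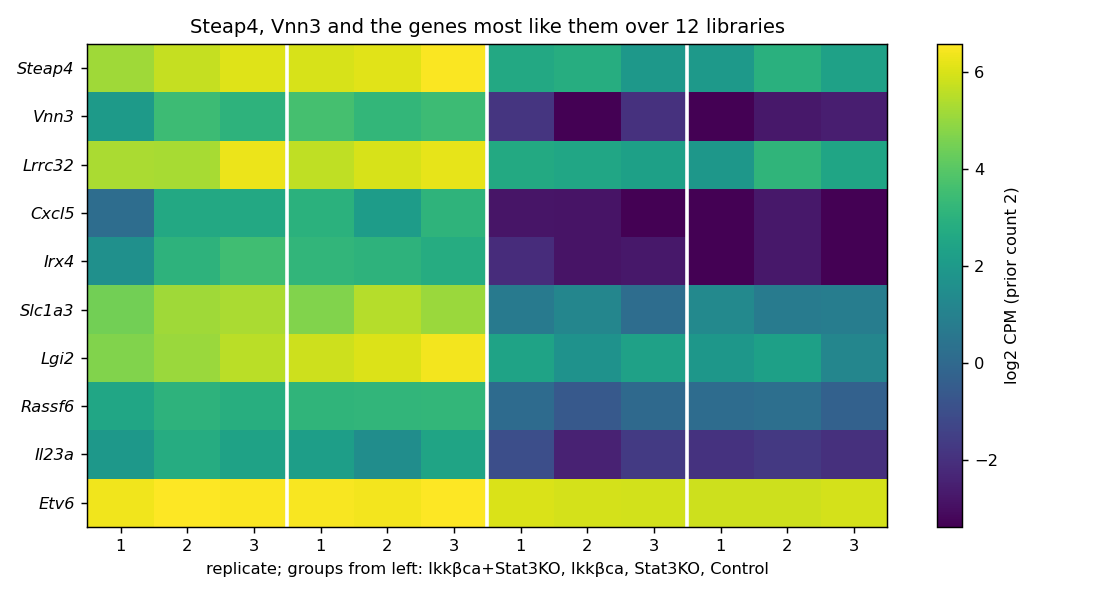
Colours give log2 CPM with a prior count of 2 for Steap4, Vnn3 and the 8 genes ranked most like them (rows) in 12 libraries (columns, white lines between groups). In each row the left 6 columns, with active IKKβ, are brighter than the right 6; the step is widest in rows near absent on the right, such as Vnn3, Cxcl5 and Irx4, and narrowest in Etv6.

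The colour map also shows Ikkβca+Stat3KO replicate 1 as the dimmest of the left 6 columns for Vnn3, Cxcl5 and Irx4. That library was also the lowest of them for Steap4, Slc1a3, Lgi2, Rassf6 and Etv6, but not for Lrrc32 or Il23a. Genes of the pathways around these proteins were then examined from 6 lists. For the iron pathway, 26 of 29 genes of uptake, storage and export were tested, and 1 was called higher and 0 lower in Ikkβca against Control, where 0.955% of all genes were called in either direction. Lcn2, a siderophore-binding lipocalin, was the gene that rose, to 17.4 ± 3.68 CPM in Ikkβca against 0.390 ± 0.432 in Control (log2 fold change 5.50 ± 0.74 SE, edgeR adjusted p = 0.0064). The list was chosen with earlier results of these data known, so nothing is read from the count of calls. Like Vnn3, Lcn2 had few counts without active IKKβ, so its p is not separate support for a change of the pathway. In Ikkβca+Stat3KO it had 4.54 ± 2.62 CPM, against 0.341 ± 0.156 in Stat3KO, with all 3 libraries above and a difference that did not pass (3.73 ± 0.72, edgeR adjusted p = 0.0595), though it passed with replicate number as a block (edgeR adjusted p = 0.0478) and with DESeq2 (adjusted p = 9.7e-06). In that comparison 0 of the 26 were called, where 0.46% of all genes were. The iron list had a median log2 fold change of 0.12 in both comparisons, against 0.0048 and 0.012 over all genes.

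Reductases and copper genes gave no call in either comparison with active IKKβ. Of all genes, 0.955% were called in Ikkβca against Control and 0.46% in Ikkβca+Stat3KO against Stat3KO. With shares so small, a count of calls over these short lists says nothing. Of the cytochrome b561 family, the other membrane reductases, 6 of 7 genes were tested, with medians of 0.09 for Ikkβca against Control and -0.03 for Ikkβca+Stat3KO against Stat3KO. Its member with the smallest adjusted p, Cyb561a3, an endosomal ferrireductase, was at -0.20 ± 0.11 SE in Ikkβca against Control (edgeR adjusted p = 0.488). Of 14 copper handling genes 12 were tested, with medians of -0.19 and 0.07. Cox17, the copper chaperone for cytochrome oxidase, had 30.6 ± 1.83 CPM in Ikkβca and 46.1 ± 4.31 in Control (-0.59 ± 0.17, edgeR adjusted p = 0.187).

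The coenzyme A, glutathione and PPARα lists, set beside the vanins, gave no call either. With the same shares of 0.955% and 0.46% called over all genes, that says nothing about these lists. All 17 genes of pantothenate, coenzyme A and cysteamine metabolism were tested, with medians of -0.08 for Ikkβca against Control and -0.01 for Ikkβca+Stat3KO against Stat3KO. Coasy, the last enzyme of coenzyme A synthesis, had 46.3 ± 0.581 CPM in Ikkβca and 55.0 ± 2.53 in Control (-0.25 ± 0.09 SE, edgeR adjusted p = 0.289). The 17 glutathione genes had medians of -0.05 and 0.05 in these comparisons. The 15 of 17 PPARα targets tested had medians of -0.32 and -0.04.

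Loss of Stat3 averaged over both backgrounds called 0 genes of the 6 lists, where 0.262% of all genes were called, a share too small for a count over these lists to say anything. The list medians were -0.01 for the b561 family, -0.04 for iron, 0.02 for copper, -0.03 for coenzyme A, -0.16 for glutathione and 0.24 for PPARα targets, against -0.01 over all genes. Gpx3, a secreted glutathione peroxidase, was the glutathione gene with the smallest adjusted p, at -1.26 ± 0.31 SE (edgeR adjusted p = 0.148, DESeq2 adjusted p = 0.0061). Acot2, a mitochondrial acyl-CoA thioesterase, held that place among the PPARα targets, at 0.55 ± 0.14 (edgeR adjusted p = 0.149, DESeq2 adjusted p = 0.016). Both calls depend on the tool.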

How the data were processed

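Gene-level counts were measured in 12 libraries. The deposited files hold raw counts per gene symbol; per the submitters' processing notes, cutadapt 1.13, STAR, HTSeq 0.6.1p1 and mm10 were used, and DESeq2 is named too. Strand is not given in the sources used here. No file held a row without a gene name.

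edgeR 4.0.16 with limma 3.58.1 in R 4.3.3 was run on those counts: filterByExpr at its defaults (14134 of 23337 genes), TMM factors, 1 robust quasi-likelihood fit to 4 groups, and Benjamini-Hochberg adjustment over all genes tested, with a call at an adjusted p below 0.05. Standard errors are log2 fold change over the square root of F. DESeq2 1.42.0 was an alternative, as were other scalings, filters, libraries left out and a replicate block. Exact permutation tests used log2 CPM with a prior count of 2. Positions and exon lengths come from GENCODE M21, and upstream sequences from RefSeq. The procedure was tested on simulated data for the averaged Stat3 comparison. It recovered 61.2% of 2-fold, 87.9% of 4-fold and 97.0% of 8-fold changes, and called 4 unchanged genes. No change with active IKKβ was simulated, so genes nearly empty without it, such as Vnn3, were not covered.

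The genes, the 6 lists and the markers were chosen with earlier results of these data known. Named list genes are those called, up to 3 per list, or the one with the smallest adjusted p where none was called in Ikkβca against Control, Ikkβca+Stat3KO against Stat3KO or the averaged Stat3 comparison. Xist and Y-linked transcripts marked replicate 1 of every group as female and replicates 2 and 3 as male, so the number carries sex in these libraries. Same-numbered libraries of Ikkβca+Stat3KO and Stat3KO deviated together (correlations 0.12, 0.26 and 0.14), and no other comparison had every pair over 0.1. A different-numbered pair there, Ikkβca+Stat3KO replicate 1 with Stat3KO replicate 3, also reached 0.15. Any such pairing is read from the data, not the labels, and the main fit does not use it. No library repeated another of its group, the smallest chi-square per degree of freedom being 26.1.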

Additional observations from a re-analysis of the deposited data

How the results depend on the processing

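For the 6 genes under loss of Stat3, 370 values were computed under the alternatives, 0 of them past the threshold, and 357 kept their direction. The 13 that turned were of values near 0 or of Vnn1. For Stat3KO against Control, Steap1 was 0.0069 with library totals and -0.15 to 0.19 with single libraries left out, Steap3 0.15 without both libraries rich in gastric transcripts and -0.27 to 0.18 with single libraries left out, and Steap4 -0.14 to 0.37, Vnn1 -2.09 to 2.23. Vnn1 averaged over backgrounds ran from -1.58 to 0.58. For active IKKβ, leaving out libraries or changing settings moved Steap4 between 3.58 and 4.09 for Ikkβca against Control and 2.95 and 3.41 for Ikkβca+Stat3KO against Stat3KO, and Vnn3 between 7.23 and 8.34 and 5.43 and 6.57. Lcn2 in Ikkβca+Stat3KO against Stat3KO passed with DESeq2 and with the replicate block, and without Control replicate 2, Control replicate 3 or Ikkβca+Stat3KO replicate 1 (adjusted p 0.0229, 0.0486 and 0.0207).

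Counts of called genes depended on the setting. Those for Ikkβca against Control (135) were 66 with library totals, 419 with DESeq2 (319 higher, 100 lower), 83 without the gastric-rich libraries, 61 with only these 2 groups in the fit, and 42 to 145 with single libraries left out. For Ikkβca+Stat3KO against Stat3KO (65) they were 29, 292 (194 higher, 98 lower), 28, 16 and 20 to 81 under the same changes. The averaged Stat3 comparison (37) gave 0, 375 (160 higher, 215 lower), 23 (12 higher, 11 lower) and 0 to 52, with no fit of 2 groups. Stat3KO against Control and Ikkβca+Stat3KO against Ikkβca gave 104 and 131 with DESeq2 and 0 to 1 with single libraries left out, and the interaction 5 with DESeq2 and 0 with each library left out. The causes were not tested.

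With replicate number as a block the counts were 173 for Ikkβca against Control, 71 for Ikkβca+Stat3KO against Stat3KO and 0 for the other comparisons, the averaged Stat3 one included. Correlations between deviations of same-numbered libraries ran from -0.41 to 0.45, with 9 of 18 over 0.1, against -0.54 to 0.39 and 12 of 36 for different numbers. All 3 pairs were over 0.1 in Ikkβca+Stat3KO against Stat3KO alone. The results printed for that comparison still come from the fit without pairs, and the block is an alternative set beside them. Of the results printed for that comparison, the block changed the call of Lcn2 and no other. Under this block Steap4 averaged -0.23 for loss of Stat3. Vnn3 without active IKKβ, at 0 to 4 counts a library, is the value that depth limits most.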
